A study of Mus musculus with 6 samples.

Results

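The genes described here are 10 components of the cAMP and protein kinase A (PKA) pathway that holds the mouse oocyte in prophase of meiosis. They were chosen by name: every entry of the deposited ribosome footprint table whose gene name was Gpr3, Gpr12, Adcy3, Adcy9, Pde3a, Prkar1a, Prkar2a, Prkar2b, Prkaca or Prkacb was taken, which gave 10 of 22416 genes. The study profiled ribosome-protected RNA with Ribo-lite, a low-input form of ribosome profiling, to ask how stabilising RNA G-quadruplexes, four-stranded structures formed by runs of guanine, alters translation in oocytes. It held 3 groups of 2 libraries: fully grown germinal vesicle oocytes (WT_FGO), metaphase II oocytes (WT_MII) and treated metaphase II oocytes (Treat_MII). All 3 groups carried the wild-type genotype, so no allele separated them, and the source tissue of each was ovary. By the protocols, the females were 4 weeks old, received 5 IU of pregnant mare serum gonadotropin and were used 44 h later, and the 500 oocytes behind a library were pooled. The treatment named in the methods is BYBX, a fluorescent ligand that binds and stabilises RNA G-quadruplexes, and oocytes in the solvent DMSO were the control. In the paper's methods, oocytes were collected at the germinal vesicle stage and then cultured, and BYBX was added to the culture medium. A part of this culture in the differences between the stages was not tested. The labels do not carry the dose of these libraries, and it is not repeated here. The methods also name milrinone, an inhibitor of phosphodiesterase 3, as the agent used in culture to stop germinal vesicle breakdown. Whether the oocytes of the WT_FGO libraries had met milrinone is not given in the sources used here.

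In the fully grown oocyte, the orphan receptors GPR3 and GPR12 are constitutively active and signal through a stimulatory G protein to adenylyl cyclases, which make cAMP. cAMP binds the regulatory subunits of PKA and frees its catalytic subunits, which phosphorylate WEE2 and CDC25B and so keep the cyclin B kinase CDK1 inactive. Phosphodiesterase 3A degrades cAMP, and it is itself held back by cGMP that reaches the oocyte from the follicle cells through gap junctions. When the cGMP falls, phosphodiesterase 3A is released, PKA activity drops and meiosis resumes.

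The sequences shown first are those that bear on the question of the study, the G-quadruplex motif in the members' own messages, together with the cytoplasmic polyadenylation element, the 3′-UTR signal through which messages of maturing oocytes are known to be activated. A match to the G-quadruplex motif needed 4 G runs, each 3 or more bases long and parted from the next by 1 to 7 bases, on the sense strand of the longest coding transcript (GENCODE M21, GRCm38). It was found in 2 of 10 members, 20% against 19.8% of 14806 tested genes with such a transcript. Prkaca held one in its 5′-UTR and one in its 3′-UTR, and Gpr3 held one in its coding sequence. The runs of G are in capitals.
Prkaca 5′-UTR, chr8:83973029-83973051, plus strand: GGGaagcaGGGGctGGGcGGGGG
Prkaca 3′-UTR, chr8:83996312-83996339, plus strand: GGGtGGGGGccccGGGtggacgaGGGGG
Gpr3 coding sequence, chr4:133210856-133210878, minus strand: GGGtGGGtgccctGGGcctGGGG
Among regions of the same kind and about the same length, 7.18% of 2717 5′-UTRs, 10.9% of 2093 3′-UTRs and 3.57% of 3329 coding sequences held such a match. With runs of at least 2 G, all 10 members held a match, as did 96.0% of the genes, so that the looser motif separated no member from the rest. The polyadenylation element, TTTTAT or TTTTAAT within the last 100 bases of the 3′-UTR, was found in Adcy3 and Prkar2b, 2 of 10 members, against 18.7% of 13608 genes. It is in capitals below.
Adcy3 3′-UTR, chr12:4213487-4213516, plus strand: agaacaggactgTTTTATtaaaagctttac
Prkar2b 3′-UTR, chr12:31958476-31958499, minus strand: aataaagcacacTTTTATaataaa
The canonical polyadenylation signal, AATAAA or ATTAAA in the last 50 bases, was present in 7 of 10 members and in 77.3% of the genes. A match is a description of the letters and was not tested as a structure or a binding site.

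The deposited values were FPKM, footprint reads scaled by coding length and by the reads of the library, and FPKM is the scale of every level below. The step between low FPKM values gave whole reads for 96.3% of the genes (within 0.02 reads), so the reads behind each value could be counted. The libraries rested on 94309 and 107251 reads in WT_FGO, 164972 and 230907 in WT_MII, and 331304 and 275604 in Treat_MII, and between 48.2% and 57.2% of genes were at 0 in a library. The 10 members together held 34 and 58 reads in WT_FGO, 114 and 103 in WT_MII, and 152 and 136 in Treat_MII, which is 0.0361% to 0.0691% of a library. Replicates ranked the 2706 genes with at least 60 reads alike, with a Spearman's rho of 0.850 in WT_FGO, 0.853 in WT_MII and 0.959 in Treat_MII. Among the 15127 genes tested, rho was 0.4995, 0.608 and 0.732. The stage labels were checked for meiotic resumption only, with Btg4, a message translated after it. Btg4 lay at 169.6 and 229 FPKM in WT_FGO and between 4772 and 5959 FPKM in the 4 metaphase II libraries. Its level cannot show that metaphase II was reached. The paper reports less frequent polar body emission at higher BYBX concentrations. The 17 oocyte markers in the table summed to between 22241 and 61831 FPKM per library. The 18 granulosa and cumulus markers summed to 2146 FPKM in WT_FGO replicate 2 and to between 121 and 308 FPKM in the other 5 libraries, and 5 to 11 of them were at 0. The second WT_FGO library therefore stood apart in the sum of these follicle cell messages. Most of that sum came from Inha, at 747 FPKM, and Gja1, at 740 FPKM. Amh, Foxl2 and Fshr were also highest there, while Cyp19a1 was lowest, at 24.7 FPKM, and Nppc was at 0. The members and the wider-list genes called with all 6 libraries were also followed without this library. Other wider-list calls that changed without it are only counted. In bulk libraries such as these, fewer cells of a type and less RNA per cell cannot be told apart, and a footprint level joins the amount of a message to its ribosome load.

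Across the 3 comparisons, no member passed the test. The test was limma on log2(FPKM + 1) with Benjamini-Hochberg adjustment over the 15127 genes whose mean level reached 1 FPKM, which covered 9 of 10 members, since Adcy3 lay at a mean of 0.94 FPKM. Between WT_FGO and WT_MII, the maturation comparison, 0 of 9 members were called at an adjusted p under 0.05, against 6.76% of all genes tested, and 1 member, Prkaca, had an unadjusted p under 0.05, against 22.8%. With treatment, Treat_MII against WT_MII, 0 of 9 were called against 0% of all genes, and 0 had an unadjusted p under 0.05 against 5.83%. Between WT_FGO and Treat_MII, 0 of 9 were called against 3.87%, and 0 had an unadjusted p under 0.05 against 19.9%. Each pair of these comparisons shares 2 libraries, so they are not independent. With voom weights on the recovered reads, another way to fit the same comparisons, the count of members called was also 0 in each. The labels do not say that the 2 libraries of a group came from separate animals or cultures, so each p measures the spread between libraries, which may be technical.

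**Figure D1:**
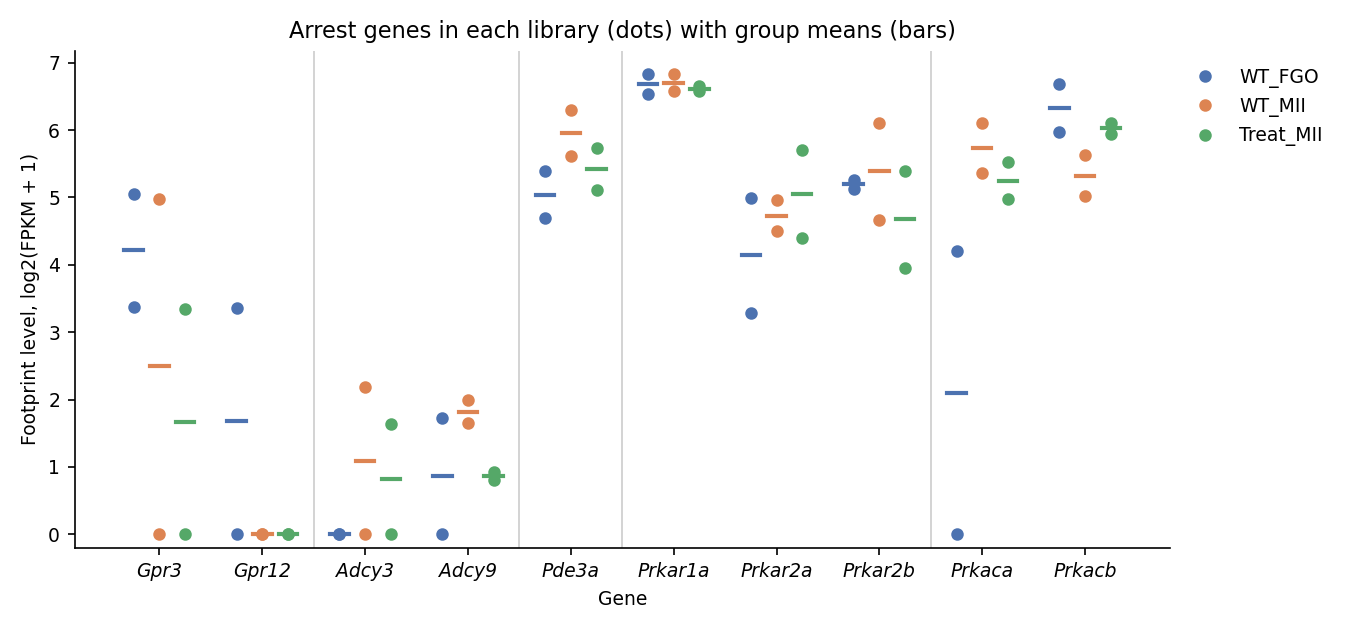
Footprint level of each of the 10 arrest genes on the log2(FPKM + 1) scale, with a dot per library, a bar at the mean of the log2 values of each group of 2 libraries, and grey lines between receptors, cyclases, phosphodiesterase, regulatory and catalytic subunits. Prkar1a lay between 91.9 and 113 FPKM in all 6 libraries, while the receptors and cyclases were at or near 0 in many.

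The receptors at the head of the pathway were sparsely measured. Gpr3, the receptor whose loss is known to release mouse oocytes from arrest (chr4:133209340-133212536, minus strand, GRCm38), lay at 32.1 and 9.42 FPKM in WT_FGO, 30.6 and 0 in WT_MII, and 9.15 and 0 in Treat_MII. These values stood on 3 and 1, 5 and 0, and 3 and 0 reads. Every pair of groups but WT_FGO and Treat_MII overlapped, and there both treated libraries lay below both WT_FGO libraries with neither group above 3 reads in a library. The ratio of the summed reads, each per library total, was 0.636 for WT_MII over WT_FGO (exact 95% interval 0.137 to 3.21) and 0.391 for Treat_MII over WT_MII (0.0608 to 2.01). These intervals cover counting error only, and both include 1. The fitted changes were -1.72 ± 1.95 (log2, SE; n = 2 per group, limma adjusted p = 0.615) at maturation and -0.82 ± 1.95 (limma adjusted p = 1) with treatment. Gpr12, the related receptor (chr5:146582398-146585239, minus strand), was read once, at 9.31 FPKM in WT_FGO replicate 2, and was at 0 in the other 5 libraries, where the floor of 3 reads applies. No fold is stated for it, though the rule on mean levels used below counts it.

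The cyclases, which make cAMP, were the least measured members. Adcy3 (chr12:4133103-4213525, plus strand) had 2 reads in WT_MII replicate 1, at 3.53 FPKM, and 2 in Treat_MII replicate 2, at 2.11 FPKM, and was at 0 in the other 4 libraries. Cenpo runs on the opposite strand over 639 of its 3435 coding bases, and the sources used here do not give whether strand was used in counting. Adcy9 (chr16:4287529-4420498, minus strand) lay at 0 and 2.30 FPKM in WT_FGO, 2.99 and 2.13 in WT_MII, and 0.744 and 0.894 in Treat_MII. Both treated libraries were below both WT_MII libraries, but on 1 and 1 against 2 and 2 reads, so all 3 groups were at or under the floor and no fold was formed. The 8 other adenylyl cyclases of the wider list were also low, with a median of 7.55 FPKM in WT_FGO, 6.66 in WT_MII and 2.36 in Treat_MII. These medians lay near the floor, which falls with depth. At the length of Adcy3 it was 9.26 and 8.14 FPKM in WT_FGO, 5.29 and 3.78 in WT_MII, and 2.64 and 3.17 in Treat_MII. None of the 8 was called in the main fit. With voom weights Adcy7 was called at maturation (adjusted p = 0.0470). Adcy7 and Adcy1 were called between Treat_MII and WT_FGO (voom adjusted p = 0.0109 and 0.0399).

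Pde3a, the enzyme that degrades cAMP in the oocyte, was the best counted member, with 192 reads (chr6:141249269-141507448, plus strand). It lay at 24.8 and 40.9 FPKM in WT_FGO, 77.9 and 48.1 in WT_MII, and 33.5 and 51.9 in Treat_MII. Both WT_MII libraries were above both WT_FGO libraries, and the treated libraries overlapped with each of the other groups. The change was 0.92 ± 0.55 at maturation (log2, SE; 95% interval -0.42 to 2.27, limma adjusted p = 0.428) and -0.54 ± 0.55 with treatment (-1.89 to 0.80, limma adjusted p = 0.969). The reads per library total stood at a ratio of 1.82 for WT_MII over WT_FGO (1.13 to 3.02, counting error only). For Treat_MII over WT_MII the ratio was 0.692 (0.506 to 0.947). Both counting intervals exclude 1, while the intervals from the replicates do not exclude an unchanged level. Gm28523 overlaps 420 of its 3423 coding bases on the opposite strand. Beside the 16 other phosphodiesterase genes of the wider list, which is not the whole family, Pde3a had the highest mean level in each group, 32.8 ± 11.4 FPKM in WT_FGO, 63.0 ± 21.1 in WT_MII and 42.7 ± 13.0 in Treat_MII (SD, n = 2). The highest mean among these 16 was 15.2 FPKM (Pde5a) in WT_FGO, 12.1 FPKM (Pde8a) in WT_MII and 23.4 FPKM (Pde8a) in Treat_MII, and these genes were picked out after their values were seen. In WT_MII the lower Pde3a library, 48.1 FPKM, was above every library value of the 16, the highest of which was 17.2 FPKM, and the same held in Treat_MII, at 33.5 against 30.9 FPKM. In WT_FGO the ranges met, since Pde2a reached 25.0 FPKM in 1 library and the lower Pde3a library lay at 24.8 FPKM. The level of Pde2a is itself uncertain, since Gm45837 covers 2796 of its 2980 coding bases on the same strand and 95.5% of its 28-base words occur there too.

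The regulatory subunits bind cAMP and restrain the catalytic subunits. Prkar1a, the type I alpha subunit (chr11:109649405-109669656, plus strand), was the steadiest and the highest member, at 91.9 and 113 FPKM in WT_FGO, 94.5 and 113 in WT_MII, and 99.4 and 94.3 in Treat_MII, on 140 reads. All 3 groups overlapped. Its change was 0.02 ± 0.36 at maturation (log2, SE; 95% interval -0.87 to 0.91, limma adjusted p = 1) and -0.09 ± 0.36 with treatment (-0.98 to 0.80, limma adjusted p = 1). It was -0.07 ± 0.36 between Treat_MII and WT_FGO (-0.96 to 0.81, limma adjusted p = 0.957). Prkar1a was thereby the 1 member whose intervals lay within a 2-fold change, between -1 and 1 on the log2 scale, in all 3 comparisons. This bound depends on the scale: centring each library on its median moved the median of all genes by 0.46 at maturation and put the upper limit for Prkar1a there at 1.45.

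The type II subunits, which attach PKA to anchoring proteins, were lower and more scattered. Prkar2a (chr9:108689314-108750436, plus strand) lay at 8.79 and 30.9 FPKM in WT_FGO, 30.2 and 21.5 in WT_MII, and 20.02 and 51.1 in Treat_MII, on 1 to 17 reads a library. Prkar2b (chr12:31958476-32061296, minus strand) lay at 33.99 and 37.4 FPKM in WT_FGO, 68.0 and 24.3 in WT_MII, and 41.1 and 14.5 in Treat_MII, on 4 to 17 reads. In both genes every pair of groups overlapped. The change of Prkar2a was 0.58 ± 0.82 at maturation (-1.41 to 2.58, limma adjusted p = 0.704) and 0.32 ± 0.82 with treatment (-1.68 to 2.32, limma adjusted p = 1). That of Prkar2b was 0.19 ± 0.76 (-1.65 to 2.03, limma adjusted p = 0.936) and -0.71 ± 0.76 (-2.55 to 1.13, limma adjusted p = 0.976). These intervals hold changes of over 2-fold in either direction, so a change of that size was not excluded.

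The catalytic subunits, which carry the kinase activity, moved in opposite directions between WT_FGO and WT_MII, without passing the test. Prkaca, the alpha subunit (chr8:83972993-83996443, plus strand), lay at 0 and 17.3 FPKM in WT_FGO, 67.7 and 40.3 in WT_MII, and 44.9 and 30.4 in Treat_MII. All 4 metaphase II libraries were above both WT_FGO libraries, and WT_MII and Treat_MII overlapped. The WT_FGO values rested on 0 and 2 reads, against 12 and 10 in WT_MII and 16 and 9 in Treat_MII. Both WT_FGO values thus lay under the level that 3 reads would give there, 29.6 and 26.0 FPKM, and the size of any change from them depends on the pseudocount. The change at maturation was 3.64 ± 1.35 (log2, SE; 95% interval 0.34 to 6.93), with an unadjusted p of 0.035 and a limma adjusted p of 0.178, and with a pseudocount of 0.1 it was 5.31. Without WT_FGO replicate 2, the library rich in follicle cell messages, the limma adjusted p was 0.0256, and the change was 5.73. Without WT_FGO replicate 1 they were 0.203 and 1.54. The first of these fits sets the metaphase II libraries against 1 library at 0 and takes its spread from the other groups. In reads per library total, WT_MII stood at 5.60 times WT_FGO (exact 95% interval 1.38 to 49.1, counting error only), and Treat_MII at 0.741 times WT_MII (0.401 to 1.38). With treatment the change was -0.49 ± 1.35 (-3.78 to 2.81, limma adjusted p = 1). Of the 28-base words of its coding sequence, 9.23% occur also in Prkaca-ps1 or Prkacb, so a part of its reads could have been divided between copies, and its level is uncertain to that extent.

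Prkacb, the beta subunit (chr3:146729574-146812990, minus strand), lay at 61.6 and 101 FPKM in WT_FGO, 48.4 and 31.4 in WT_MII, and 67.9 and 60.6 in Treat_MII, on 98 reads. Both WT_MII libraries were below both WT_FGO libraries and below both treated libraries, while the treated and the WT_FGO libraries overlapped. The change was -1.001 ± 0.49 at maturation (log2, SE; 95% interval -2.19 to 0.19, limma adjusted p = 0.305) and 0.70 ± 0.49 with treatment (-0.49 to 1.89, limma adjusted p = 0.931). The highest value was that of WT_FGO replicate 2, the library rich in follicle cell messages. Without that library the change at maturation was -0.64, and without WT_FGO replicate 1 it was -1.36. In reads per library total the ratios were 0.465 for WT_MII over WT_FGO (0.245 to 0.879) and 1.68 for Treat_MII over WT_MII (0.996 to 2.92), with counting error only.

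**Figure D2:**
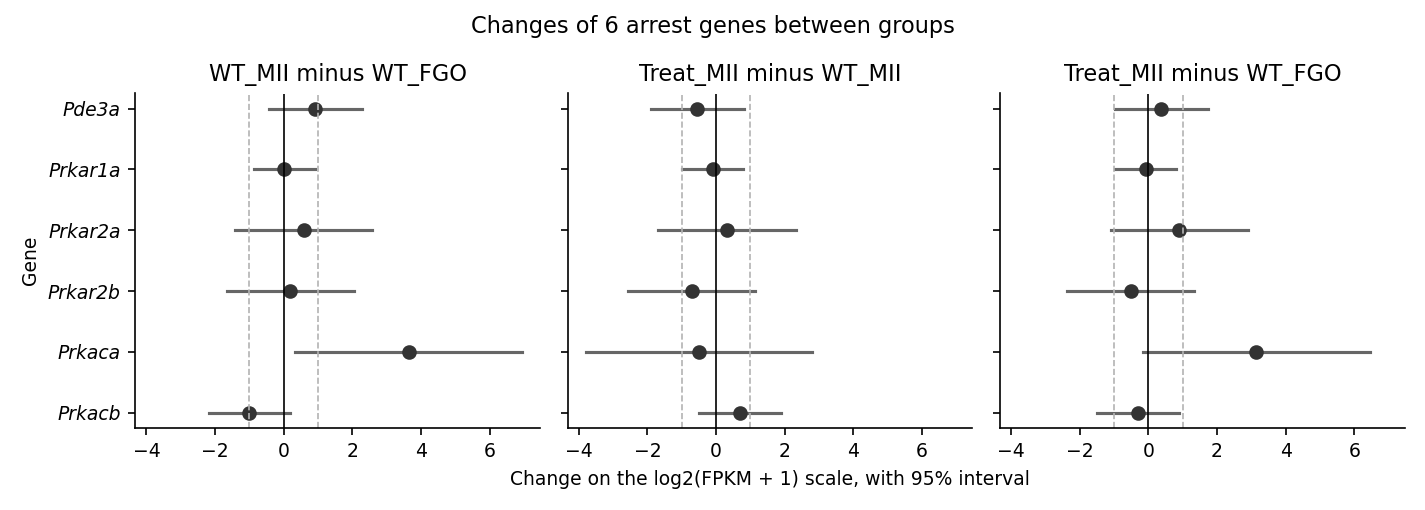
Change between groups of the 6 arrest genes with a mean above the receptors and cyclases, on the log2(FPKM + 1) scale, as a dot with its 95% interval from the fit over 6 libraries and dashed lines at a 2-fold change. Each interval but that of Prkaca at maturation (0.34 to 6.93) includes 0, and only those of Prkar1a stay between the dashed lines in all 3 panels.

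The members were also counted by whether the libraries of 2 groups separated. At maturation 2 tested members, Pde3a and Prkaca, had both WT_MII libraries above both WT_FGO libraries, against 15.3% of all genes tested, and 1, Prkacb, had both below, against 25.8%. With treatment 1 member, Prkacb, had both treated libraries above (16.2% of all genes) and 1, Adcy9, had both below (15.6%). Between Treat_MII and WT_FGO, Prkaca was above (16.6%) and Gpr3 below (28.9%). With 2 libraries against 2, an exact two-sided permutation test cannot go below p = 0.333. By the ratio of mean FPKM + 1, 1 tested member was over 2-fold higher at maturation, Prkaca, against 23.6% of all genes, and 2 were over 2-fold lower, Gpr12 and Prkacb, against 41.8%. With treatment 0 were over 2-fold higher against 19.9%, and Gpr3 alone was over 2-fold lower against 21.2%. Between Treat_MII and WT_FGO, Prkaca was over 2-fold higher against 21.2%, and Gpr3 and Gpr12 were lower against 45.5%. Those of Gpr3 rest on no more than 5 reads in a library. Those of Gpr12 rest on 1 read in all and are counted by the rule only, with no fold stated. The median change of the 9 tested members was 0.19 at maturation, -0.49 with treatment and -0.07 between Treat_MII and WT_FGO, where the median of all 15127 genes was -0.44, 0 and -0.53 on the same log2 scale. Gpr12 and Adcy9, which lie at the floor, are among these 9.

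The order of the members began with the same gene and ended with the same 3 genes in each group. Prkar1a was highest in each, at 102 ± 15.01 FPKM in WT_FGO (SD, n = 2), 104 ± 12.8 in WT_MII and 96.9 ± 3.58 in Treat_MII, and it stood at the 92.3, 93.2 and 92.6 percentile of the tested genes. In WT_FGO its range overlapped with that of Prkacb, the next in order, and these were separated from Prkar2b and all below. In WT_MII Prkar1a was separated from Pde3a, while Pde3a, Prkaca, Prkar2b and Prkacb could not be ordered beyond their spread. In Treat_MII Prkar1a lay clear of Prkacb, and Prkacb clear of Pde3a, below which Pde3a, Prkaca, Prkar2a and Prkar2b overlapped in turn. Gpr12, Adcy3 and Adcy9 held the last 3 places in each group. In WT_FGO each gene below Prkar2b overlapped with the next in order, and Gpr3 stood above Prkar2a and Prkaca there by its mean.

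By subunit class, the summed level of the regulatory members was 135 and 181 FPKM in WT_FGO, 193 and 158 in WT_MII, and 161 and 160.0 in Treat_MII. The summed level of the catalytic members was 61.6 and 119, 116 and 71.7, and 113 and 90.9 FPKM. Their ratio, regulatory over catalytic, was 1.86 ± 0.468 in WT_FGO, 1.93 ± 0.388 in WT_MII and 1.59 ± 0.238 in Treat_MII (SD, n = 2), and the 3 groups overlapped. Within the catalytic class the Prkacb share of FPKM did not overlap between the groups, though its counting intervals did. Prkacb made up 100% and 85.4% of the catalytic FPKM in WT_FGO, 41.7% and 43.8% in WT_MII, and 60.2% and 66.6% in Treat_MII. The treated libraries thus lay between the other groups. In reads, the share was 8 of 8 and 15 of 17 in WT_FGO (exact Clopper-Pearson 95% intervals 63.1% to 100% and 63.6% to 98.5%), 11 of 23 and 10 of 20 in WT_MII (26.8% to 69.4% and 27.2% to 72.8%), and 31 of 47 and 23 of 32 in Treat_MII (50.7% to 79.1% and 53.3% to 86.3%). The intervals of WT_FGO and WT_MII overlapped, and the treated intervals overlapped with those of both. The WT_FGO shares rest on 0 and 2 reads of Prkaca, under the floor. This share was picked out after its values were seen and combines the opposite movements of Prkaca and Prkacb, so it has no test.

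**Figure D3:**
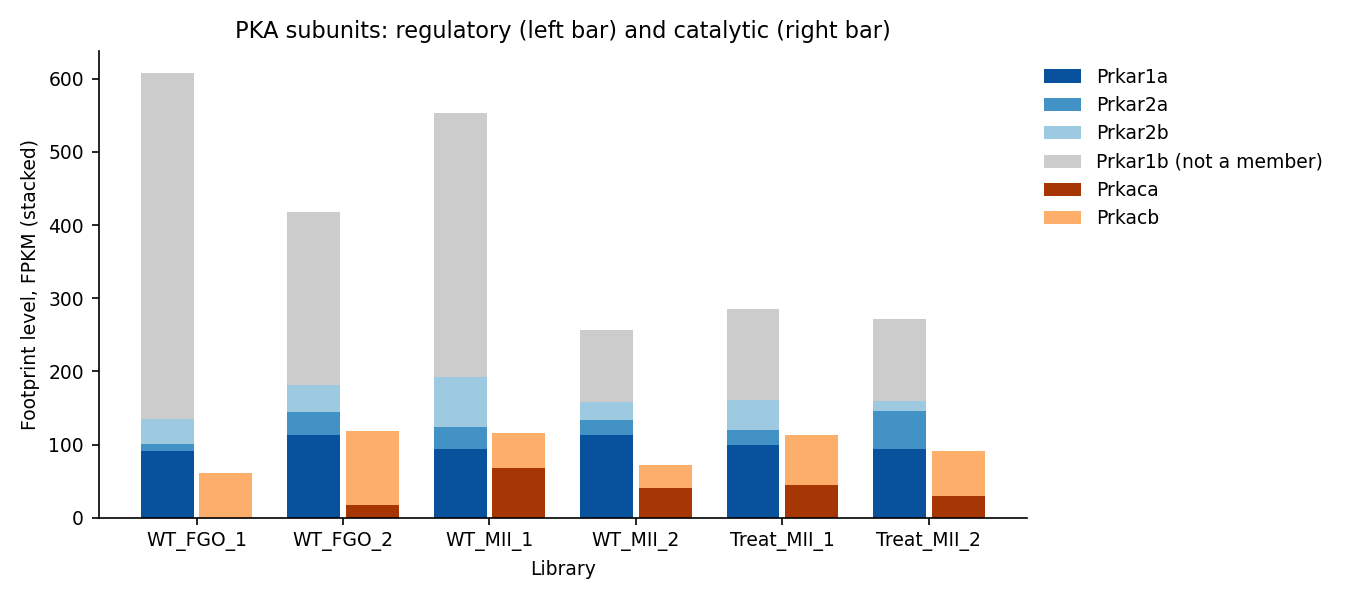
Stacked footprint levels (FPKM) of the regulatory subunits, left bar, and the catalytic subunits, right bar, of PKA in each of the 6 libraries, with the type I beta subunit Prkar1b in grey above the regulatory members. Prkacb (light orange) filled 85.4% to 100% of the right bar in WT_FGO and 41.7% to 43.8% in WT_MII, and Prkar1b exceeded the 3 regulatory members together in WT_FGO and in WT_MII replicate 1.

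Prkar1b, a regulatory subunit gene outside the 10, altered this balance. It lay at 473 and 237 FPKM in WT_FGO, 361 and 98.5 in WT_MII, and 124 and 111 in Treat_MII. Both treated libraries were below both WT_FGO libraries, and WT_MII overlapped with each. It made up 77.8% and 56.6% of the regulatory sum in WT_FGO, 65.2% and 38.3% in WT_MII, and 43.6% and 41.0% in Treat_MII. With Prkar1b and the catalytic subunit gene Prkx counted in, the ratio was 5.89 ± 3.69, 4.18 ± 0.838 and 2.75 ± 0.324 (SD, n = 2). Its change was -0.82 ± 0.67 at maturation (limma adjusted p = 0.496), -0.68 ± 0.67 with treatment (limma adjusted p = 0.966) and -1.50 ± 0.67 between Treat_MII and WT_FGO (limma adjusted p = 0.288). With voom weights on the recovered reads the last of these passed the test, at -1.48 and an adjusted p of 0.00530. In reads per library total, WT_MII stood at 0.598 times WT_FGO (0.439 to 0.816, counting error only). Treat_MII stood at 0.569 times WT_MII (0.418 to 0.773) and 0.340 times WT_FGO (0.247 to 0.469). These counting intervals exclude an unchanged level, while the limma intervals from the replicates do not.

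Around the members, a wider list of 67 genes of the same pathway was examined, of which 62 were tested. At maturation 2 of them rose, Rgs2 and Wee2 (3.67% of all genes rose), and 2 fell, Akap1 and Gja1 (3.09% fell). With treatment 0 were called, and 4 of 62 had an unadjusted p under 0.05, against 5.83% of all genes. Between Treat_MII and WT_FGO 2 were called, again Rgs2 and Wee2, both higher (2.86% of all genes were called higher). By role, 1 of 11 G protein and receptor genes, 0 of 8 cyclases, 0 of 15 phosphodiesterases, 0 of 3 PKA subunits and inhibitors, 1 of 14 anchoring proteins, 1 of 7 effectors and targets and 1 of 4 gap junction and cGMP genes were called at maturation. The median change of the list was -0.15 at maturation, 0.02 with treatment and -0.42 between Treat_MII and WT_FGO.

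Rgs2, a regulator of G protein signalling that shortens the signal of active G proteins, was the highest gene of the wider list. It lay at 281 and 384 FPKM in WT_FGO, 1116 and 1996 in WT_MII, and 1876 and 1865 in Treat_MII. All metaphase II libraries were above both WT_FGO libraries. It rose by 2.18 ± 0.33 at maturation (log2, SE; limma adjusted p = 0.0194) and was 2.505 ± 0.33 higher in Treat_MII than in WT_FGO (limma adjusted p = 0.0158). Wee2, the oocyte kinase that PKA activates and that keeps CDK1 inactive, lay at 19.1 and 61.6 FPKM in WT_FGO, 262 and 505 in WT_MII, and 560.2 and 527 in Treat_MII. Its groups at the 2 stages did not overlap either. It rose by 3.36 ± 0.62 at maturation (limma adjusted p = 0.0331) and was 3.94 ± 0.62 higher in Treat_MII than in WT_FGO (limma adjusted p = 0.0270), while the treatment itself gave 0.58 ± 0.62 (limma adjusted p = 0.976). Wee2 was also among the genes listed as translated after resumption. These calls depended on single libraries and on the variance trend of the fit. Without the trend the limma adjusted p at maturation was 0.153 for Rgs2 and 0.104 for Wee2, and between Treat_MII and WT_FGO it was 0.160 and 0.113. With any 1 left out, the limma adjusted p at maturation ran from 0.0779 to 0.149 for Rgs2, except 0.0469 without WT_MII replicate 1, and from 0.0962 to 0.196 for Wee2, except 0.0408 without WT_FGO replicate 2. Between Treat_MII and WT_FGO it ran from 0.0664 to 0.219 for Rgs2 and from 0.0744 to 0.261 for Wee2, except 0.0331 without WT_FGO replicate 2. With voom weights both genes were called in both comparisons.

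Akap1, which anchors PKA to mitochondria, lay at 65.6 and 78.0 FPKM in WT_FGO, on 17 and 23 reads, was at 0 in both WT_MII libraries, and lay at 6.59 and 7.92 FPKM in Treat_MII, on 6 and 6 reads. The 3 groups did not overlap. It was at least 12.7-fold lower in WT_MII than in WT_FGO, against a floor of 3 reads per library (limma adjusted p = 0.0096). With treatment it was at least 1.28-fold higher, with a limma adjusted p of 0.709, and voom weights gave 0.0445. The maturation call held without either WT_FGO or either WT_MII library and was lost without Treat_MII replicate 1 (limma adjusted p = 0.110) or replicate 2 (0.111). Gja1, which encodes the gap junction protein connexin 43 of follicle cells, lay at 92.5 and 740 FPKM in WT_FGO, 0 and 3.78 in WT_MII, and 13.2 and 3.17 in Treat_MII. Its WT_FGO libraries were both above the rest and differed from each other, with the higher value in the library where the granulosa and cumulus markers, Gja1 among them, summed to 2146 FPKM. In reads per library total WT_MII stood at 0.00504 times WT_FGO (0.000126 to 0.0287, counting error only; limma adjusted p = 0.0376), and the part of the follicle cell messages in this was not tested. With any 1 library left out the limma adjusted p was 0.0835 to 0.217, and it was 0.172 without the library rich in follicle cell messages. With all 6 kept, the call was also lost with a pseudocount of 0.1 (limma adjusted p = 0.0868) and without the trend (0.0727). Gja4, connexin 37 of the oocyte itself, lay at 106 and 37.3 FPKM in WT_FGO, 60.7 and 56.4 in WT_MII, and 39.3 and 69.0 in Treat_MII, with all groups overlapping (limma adjusted p = 0.968 at maturation). Gnai3, an inhibitory G protein subunit that lowers cyclase activity, lay at 59.9 and 193 FPKM in WT_FGO, 325 and 199.8 in WT_MII, and 298 and 260 in Treat_MII. All its metaphase II libraries were above both WT_FGO libraries, with a change of 1.24 ± 0.60 at maturation (limma adjusted p = 0.301).

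**Figure D4:**
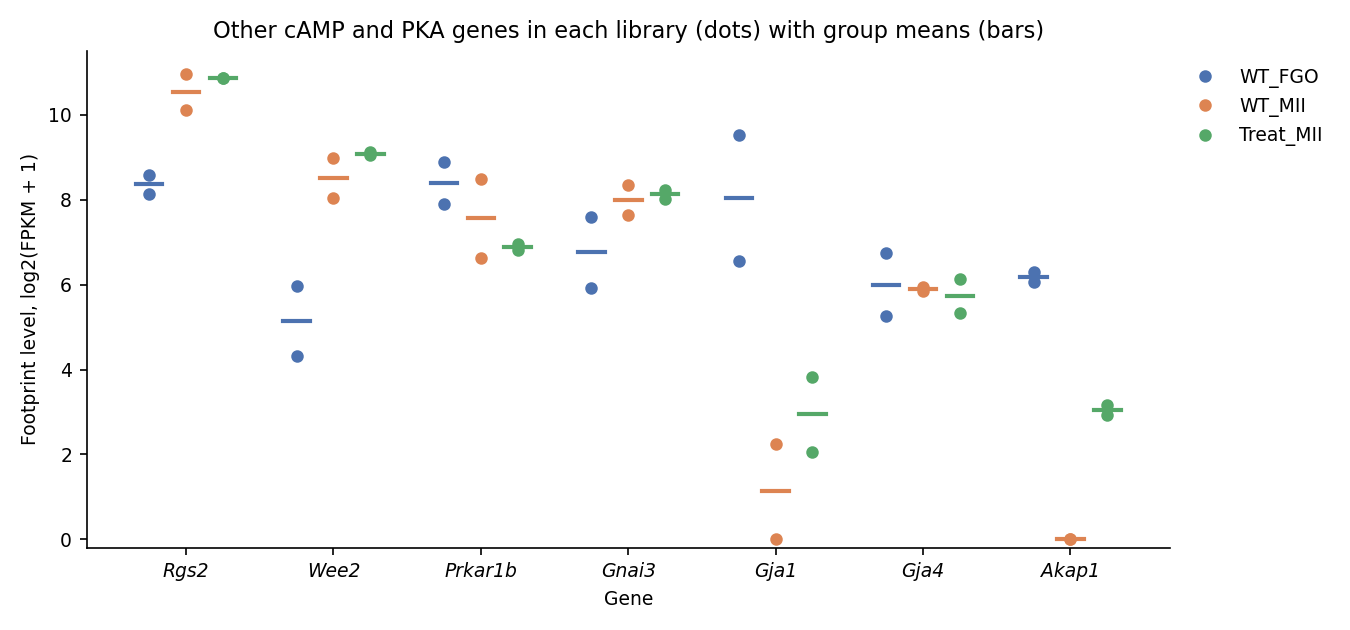
Footprint level, log2(FPKM + 1), of the 7 genes of the wider cAMP and PKA list that were called or were among its 6 highest, with a dot per library and a bar at the mean of the log2 values of each group. Rgs2 and Wee2 were higher in all 4 metaphase II libraries than in WT_FGO, and Akap1 was at 0 in both WT_MII libraries.

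The genes whose pattern over the 6 libraries was most like that of the 3 best counted members were sought among 2706 genes with at least 60 reads, by Pearson's r of log2(FPKM + 1). For Pde3a they were Thsd7a (r = 0.954), Sf3a1 (0.953) and Phc2 (0.942). For Prkar1a they were Sephs2 (0.971), Dgkd (0.935) and Zc3hav1l (0.927), which follow the small differences between libraries of a gene that varied little. For Prkacb they were Hdac2 (0.992), Tjp1 (0.983) and Tubg2 (0.977). Hdac2, a histone deacetylase, lay at 34.5 and 115 FPKM in WT_FGO, 27.6 and 8.46 in WT_MII, and 43.3 and 37.8 in Treat_MII. As for Prkacb, its WT_MII libraries were the lowest and WT_FGO replicate 2, the library rich in follicle cell messages, was the highest. With 6 points in 3 groups and 2706 genes searched, these values are a description only, since the points share libraries and depth.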

How the data were processed

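Ribosome footprints of 6 Ribo-lite libraries were analysed. FPKM values per gene were deposited by the authors in 1 table; the submitters' processing notes name cutadapt 1.14, Bowtie2 2.2.2 and STAR 2.5.3a, while the counting tool, annotation, use of strand and handling of duplicate reads are not given in the sources used here, and no spike-in scaling is stated. Of 22442 entries, 26 repeated names were left out. The 10 members and the gene lists were chosen with earlier results of these data known.

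Whole reads were recovered from FPKM and the GENCODE M21 coding lengths (GRCm38) and served for depth, floors of 3 reads and exact 95% intervals, which cover counting error only. Levels were tested as log2(FPKM + 1) for the 15127 genes whose mean level reached 1 FPKM. On this scale the size of a change against libraries at or near 0 depends on the pseudocount. All 6 libraries entered 1 fit with limma 3.58.1 (lmFit, eBayes with trend) in R 4.3.3, two-sided, with Benjamini-Hochberg adjustment and a threshold of 0.05. The script was tested on simulated data, with large changes in genes of more reads than any member. That test does not cover changes at the depth of the members. The text names all members, each gene of the wider list that was called, its 6 highest genes, and 3 genes most like each of the 3 members with most reads. Same-numbered libraries were not taken as pairs, since their deviations correlated by 0.0342, 0.0189 and 0.0176 over 2706 genes. Alternatives changed the pseudocount, filter, scaling, trend, libraries fitted, block and weights, or left out each library.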

Additional observations from a re-analysis of the deposited data

How the results depend on the processing

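No alternative that kept all 6 libraries called a member. Fits that left out 1 library called no member with treatment. Without WT_FGO replicate 2, Prkaca was called at maturation (5.73) and between Treat_MII and WT_FGO (5.25). Without WT_FGO replicate 1, Gpr12 was called in the same comparisons. That call of Gpr12 rests on its 1 read, with no spread between the libraries of a group, so no fold is stated. Such fits leave 1 library in a group. Some changes turned when 1 library was left out. At maturation Gpr3 ran from -4.22 to 0.77, Prkar1a from -0.13 to 0.17, Prkar2a from -0.27 to 1.44 and Prkar2b from -0.53 to 0.91. With treatment Gpr3 ran from -3.31 to 1.67, Prkar1a from -0.22 to 0.034, Prkar2a from -0.33 to 0.98, Prkar2b from -1.43 to 0.016 and Rgs2 from -0.094 to 0.74. Between Treat_MII and WT_FGO, Prkar1a ran from -0.22 to 0.075, Prkar2b from -1.24 to 0.20 and Prkacb from -0.65 to 0.058. Scaling turned Prkar1a (0.28 centred, 0.13 quantile), Prkacb (0.051 centred) and Prkar2b (0.054 quantile) in that comparison, and voom turned Prkar1a at maturation (-0.004003). Of the wider list, leaving out 1 library turned Prkar1b at maturation (-1.75 to 0.11) and with treatment (-1.61 to 0.25), Gnai3 with treatment (-0.22 to 0.48), and Gja4 at maturation (-0.85 to 0.63), with treatment (-0.56 to 0.24) and between Treat_MII and WT_FGO (-1.01 to 0.47). Gja4 also turned at maturation (0.36 centred, 0.26 quantile) and between Treat_MII and WT_FGO (0.078 centred, 0.12 quantile). Changes of Gpr12, Adcy3 and Adcy9, at the floor of 3 reads, were not followed in this way.

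Counts over all genes moved more. At maturation 555 rose and 468 fell; centring gave 758 and 305 (71.3% higher against 54.3%), no trend 188 and 140, only the compared groups 0 and 0, and voom 803 and 1575; wider-list calls were 1, 0 and 8 under the last 3, and 3 with a pseudocount of 0.1, where Gja1 was lost. With treatment voom called 65 higher and 100 lower, 1 of them in the wider list. Between Treat_MII and WT_FGO, 433 rose and 152 fell; no trend gave 56 and 3, the compared groups 31 and 1, and voom 850 and 1984, with wider-list calls of 0, 0 and 9. There a minimum of 5 FPKM gave 232 lower, centring 594 and 65 (90.1% higher against 74.0%), and the replicate block 73 lower. Leaving out 1 library gave 0 to 902 higher and 0 to 1066 lower at maturation (wider list 0 to 5), 0 to 398 and 0 to 387 with treatment (0 to 1), and 120 to 942 and 9 to 784 between Treat_MII and WT_FGO (0 to 4). The replicate block changed no member's call. Fitting only the compared groups, which leaves fewer libraries for the spread, ended every wider-list call. The causes were not tested beyond that.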
